A study of Solanum lycopersicum with 3 samples.

Results

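The known miRNAs of AGL6-silenced tomato ovaries (AGL6sil) were compared with those of mock-treated ovaries (ctrl). Members were the listed mature miRNAs with a miRBase name of tomato and at least 50 reads summed over the 3 libraries of the series, which gave 91 of the 125 known miRNAs and of the 634 miRNAs listed in all. The 91 belong to 50 families by the number in their name, of which 21 have more than 1 member. Names are given without the tomato prefix. The plants were wild-type cultivar UC82. AGL6sil ovaries had received 5 µg of dsRNA against AGL6, carried by 1 mg of layered double hydroxide (LDH) particles, through an injection into the flower pedicel. The third library, IAA9sil, had received the same amount of dsRNA against IAA9, and ctrl ovaries the LDH particles without dsRNA. All flowers were emasculated 6 h later, kept from pollination, and their ovaries were collected before anthesis, 5 days after treatment. The labels call the ovaries detached, while the treatment text has them left on the plant.

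Each condition is represented by 1 library from 1 pool of ovaries. No difference below therefore has a replicate check in these data, and each one compares these libraries, not the conditions. Outside the libraries, the study reported miR393 and miR482e-5p as reduced after silencing, by stem-loop qRT-PCR on replicate samples of flower buds. Its figure legend names AGL6sil and IAA9sil respectively, so the miR482e-5p result may not concern AGL6sil. The reduction that it gave for miR482e-5p was also much smaller than the difference between the AGL6sil and ctrl libraries. Intervals are exact 95% intervals of the read counts and cover counting error only, since no molecular identifiers are named and copies of a molecule may each be counted. The members held 1395745 reads in AGL6sil, against 1019313 in IAA9sil and 1007092 in ctrl. Fewer cells of a type and less miRNA per cell cannot be told apart in pooled tissue. Counts of mature miRNAs hold no protein-coding markers, so neither the labelled tissue nor the AGL6 transcript was checked here.

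Plant miRNAs are cut by the nuclease DCL1 from a hairpin precursor as a short duplex. One strand, the guide, is loaded into an ARGONAUTE protein and directs it to complementary transcripts, which are then cleaved or blocked in translation. The other strand, the star, is mostly degraded. Many conserved families restrain transcription factors of organ growth and identity, others act on auxin perception, on the silencing machinery itself, on nutrient balance or on immune receptors. AGL6 is a MADS-box transcription factor that holds back growth of the tomato ovary until fertilization.

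Sequences are given 5′ to 3′, with bases 2 to 8, the seed, in capitals. First come both arms of 5 precursors in which the arms differed between the libraries.
miR164a-5p, guide: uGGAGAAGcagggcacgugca
miR164a-3p, star: cAUGUGCCuguuuuccccauc
miR168a-5p, guide: uCGCUUGGugcaggucgggac
miR168a-3p, star: cCUGCCUUgcaucaacugaau
miR394-5p, guide: uUGGCAUUcuguccaccucc
miR394-3p, star: aGGUGGGCauacugucaaca
miR403-3p, guide: cUAGAUUCacgcacaagcucg
miR403-5p, star: cGUUUGUGcgugaaucuaaca
miR390a-5p, guide: aAGCUCAGgagggauagcacc
miR390a-3p, star: cGCUAUCCauccugaguuuua

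Further star arms had a far lower share in AGL6sil, and the sequences of their guides were not in the sources used here.
miR166c-5p, star: gGGAUGUUgucuggcucgaca
miR396a-3p, star: gUUCAAUAaagcugugggaag
miR482e-5p, star: uGUGGGUGggguggaaagauu

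Of the other miRNAs, the lowest are the following 4, with log2 ratios below that of miR390a-5p.
miR9472-5p: uUUCAGUAgacguugugaaua
miR9476-5p: uCUAGUCCugcaucuuuuuuu
miR530: aGGUGUAGguguucaugcaga
miR169e-3p, star: uGGCAAGCaucuuuggcgacu

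The miRNAs called higher are the following.
miR398a: uAUGUUCUcaggucgccccug
miR397-3p: uCAACGCUaaacucgaucaug
miR9474-5p: uGUAGAAGucaugaauaaaaug
miR482a: uUUCCAAUuccacccauuccua

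Laid antiparallel with overhangs of 2 bases at the 3′ ends, the 2 arms of miR164a formed 13 Watson-Crick and 3 G-U pairs over 19 positions. The arms of miR403 formed 16 and 1, those of miR390a 16 and 1, and those of miR168a 13 and 4. For the 20-base arms of miR394 it was 14 and 2 over 18 positions. The arms named together are thus largely complementary, as arms of a single duplex are.

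The reads of the libraries have to be put on a common scale, and that choice moves every ratio by the same amount. Division by the median over all listed miRNAs, the scale of the study, gave AGL6sil a factor of 2.13 relative to ctrl. The lowest of 8 scales, the median of the known miRNAs alone, gave 0.762. A log2 ratio under that scale is higher by 1.48 for every miRNA. Values below use the median of all listed miRNAs, and are accompanied by ratios between miRNAs of the same library, which need no scale. A miRNA was called at a log2 ratio of 1.5 or more in either direction, a 2.83-fold difference.

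Of the 91 known miRNAs, 39 were called lower in AGL6sil than in ctrl, which is 42.9% of them, while 13.6% of the 374 known and predicted miRNAs past the read limit were called lower. Only 4, or 4.40%, were called higher, against 7.75% of the 374. In either direction 47.3% were called, against 21.4%. The log2 ratio was below 0 for 82.4% of the 91 and for 54.5% of the 374. The median log2 ratio of the 91 was −1.20 and the quartiles were −2.13 and −0.21, whereas the median of all 374 was −0.12. In IAA9sil, set against the same ctrl library, the median of the 91 was −0.02 and the quartiles were −0.51 and 0.24.

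The direction of 36 of the 91 depended on the scale. Below ctrl under each of the 8 scales were 39, and above ctrl under each were 16. The 14 miRNAs called lower under all 8 scales were, in order of size, miR394-3p, miR164a-3p, miR9472-5p, miR396a-3p, miR166c-5p, miR403-5p, miR482e-5p, miR168a-3p, miR9476-5p, miR530, miR169e-3p, miR390a-5p, miR9471b-5p and miR171f. All 4 miRNAs called higher, miR398a, miR397-3p, miR9474-5p and miR482a, were called under all 8 scales. The scale used here gave AGL6sil the highest factor of the 8, so no other scale could undo a call higher. The whole interval was past the threshold for 28 of the 39 and for 2 of the 4, miR398a and miR482a. The miRNAs called lower spanned all abundances. Ranked by their reads in IAA9sil, the library on neither side of the ratio, 14 of the 30 rarest, 16 of the next 30 and 9 of the 31 most abundant were called lower.

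**Figure D1:**
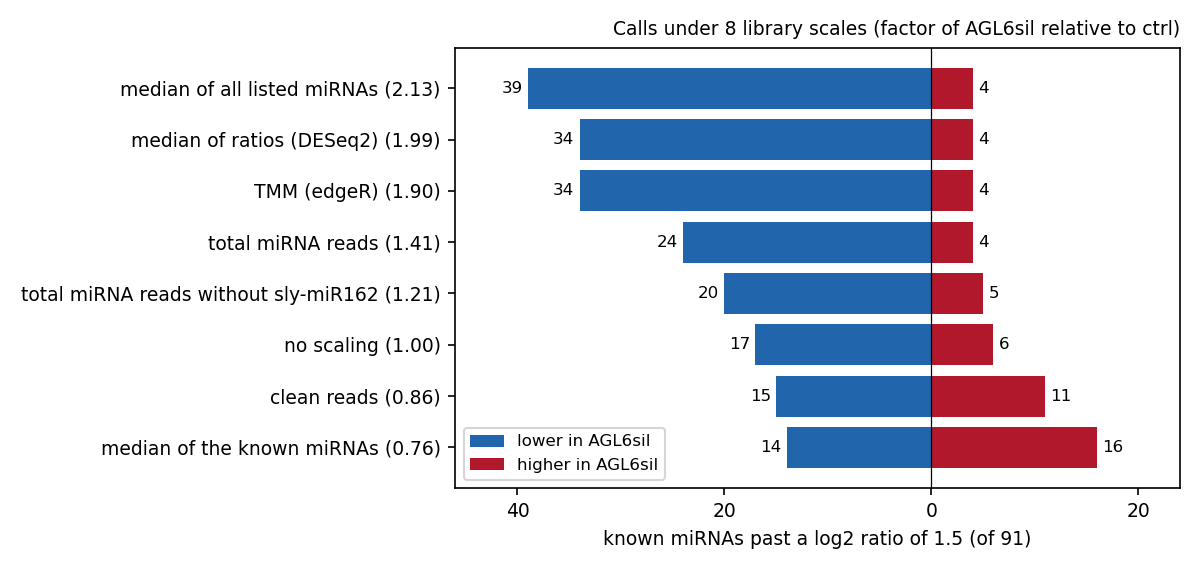
Number of the 91 known miRNAs past a log2 ratio of 1.5 under 8 library scales, ordered by the factor that each gives AGL6sil relative to ctrl (in brackets). Bars to the left count miRNAs lower in AGL6sil and bars to the right those higher. The count of lower miRNAs ran between 39 and 14, and that of higher ones between 4 and 16.

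Star arms made up 7 of the 8 lowest log2 ratios. Both arms had at least 50 reads in 16 precursors. The arm with fewer reads in all was relatively lower in AGL6sil than in ctrl in 11 of them, with the interval below 0. In 4 it was relatively higher, with the interval above 0. These 4 were miR164a, miR168a, miR396a and miR403, in which the guide had fewer reads than the star. The guide was assigned from the function of the family in 11 of the 16 precursors, after the values were seen. In 9 of the 11 the star arm lost ground to its own guide in AGL6sil compared with ctrl, and the interval of that change lay below 0 in all 9. The median log2 change of star over guide was −2.72. In IAA9sil, set against the same ctrl library, the star was also relatively lower in 9 of 11, with the interval below 0 in 7 and a median of −0.59. Between AGL6sil and IAA9sil directly, the median was −1.91 and the interval lay below 0 in 9. All 11 star arms together took 16.8% of the reads of both arms in AGL6sil (interval 16.6% to 17.0%), 52.7% in IAA9sil (52.5% to 53.0%) and 63.9% in ctrl (63.7% to 64.0%). miR166c supplied a large part of these reads, and without it the shares were 26.1% in AGL6sil, against 62.4% in IAA9sil and 76.7% in ctrl. The arm named star had more reads than its guide in 5 of the 11 in AGL6sil, 6 in IAA9sil and 7 in ctrl. On the common scale the median log2 ratio was −4.01 for the star arms and −1.46 for the guide arms. Called lower were 10 of 11 star arms and 5 of 11 guides, and under all 8 scales 7 star arms and 1 guide. Of all 91 members, 39 were called lower, which is 42.9%, and 14 were under all 8 scales. The count of guides called lower was close to that share and does not set the guides apart.

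miR166 restrains the class III HD-ZIP factors that set organ polarity. Its arm miR166c-5p had 7001 reads in AGL6sil, against 39869 in IAA9sil and 80691 in ctrl. The guide arm miR166c-3p had 67818 in AGL6sil, against 53101 in IAA9sil and 71529 in ctrl. Star reads for each guide read were 0.103 in AGL6sil, against 0.751 in IAA9sil and 1.13 in ctrl, so the arms were about equal in number in ctrl and far apart in AGL6sil. The log2 change between AGL6sil and ctrl was −3.45 (interval −3.49 to −3.41).

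miR396, which limits the growth-regulating factors (GRFs) and so cell proliferation, had a larger excess of the star. miR396a-3p, the star, had 5560 reads in AGL6sil, against 34765 in IAA9sil and 64633 in ctrl. The guide miR396a-5p had 2712 in AGL6sil, against 3186 in IAA9sil and 3505 in ctrl. The star was in excess in each library, by 2.05 reads for each guide read in AGL6sil, against 10.9 in IAA9sil and 18.4 in ctrl. The log2 change from ctrl was −3.17 (−3.25 to −3.09).

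miR164 acts on NAC transcription factors of the CUC group, which mark organ boundaries. Its star miR164a-3p was counted 195 times in AGL6sil, against 2470 in IAA9sil and 4225 in ctrl. Reads of the guide miR164a-5p numbered 41 in AGL6sil, against 175 in IAA9sil and 128 in ctrl. Both arms were called lower, the star at −5.53 and the guide at −2.73 on the log2 scale. The star was relatively scarce in AGL6sil, with 4.76 reads for each guide read, against 14.1 in IAA9sil and 33.0 in ctrl, a log2 change from ctrl of −2.80 (−3.36 to −2.21).

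The same order was found in miR403, which acts on AGO2. miR403-5p, the star, had 240 reads in AGL6sil, against 1404 in IAA9sil and 2404 in ctrl. The guide miR403-3p had 155 in AGL6sil, against 250 in IAA9sil and 236 in ctrl. Star reads for each guide read were 1.55 in AGL6sil, against 5.62 in IAA9sil and 10.2 in ctrl, a log2 change of −2.72 between AGL6sil and ctrl (−3.08 to −2.36). In miR168, which acts on AGO1, the star miR168a-3p had 885 reads in AGL6sil, against 5600 in IAA9sil and 6173 in ctrl. The star outnumbered the guide in IAA9sil and ctrl but not in AGL6sil. Per read of the guide miR168a-5p there were 0.535 reads of miR168a-3p in AGL6sil, against 2.92 in IAA9sil and 2.35 in ctrl.

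miR394 regulates the F-box gene LCR, which acts in stem cell maintenance in Arabidopsis. miR394-3p, its star, was down to 1 read in AGL6sil, against 111 in IAA9sil and 308 in ctrl. The guide miR394-5p had 309 reads in AGL6sil, against 685 in IAA9sil and 527 in ctrl. The log2 ratio of the star was −9.36 with a wide interval of −14.67 to −6.87, since it rests on a single read, and star over guide differed by a log2 of −7.50 (−12.81 to −4.99).

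The miR482 superfamily acts on transcripts of NBS-LRR immune receptors. Both of its star arms past the read limit were called lower. miR482e-5p had 1860 reads in AGL6sil, against 4848 in IAA9sil and 14078 in ctrl. There were 0.0548 for each read of its guide in AGL6sil, against 0.206 in IAA9sil and 0.785 in ctrl. miR482d-5p was rare everywhere, with 9 reads in AGL6sil, against 23 in IAA9sil and 25 in ctrl. Its guide miR482d-3p had 2492 in AGL6sil, against 1899 in IAA9sil and 1735 in ctrl, and the log2 change of the star over it was −2.0 (−3.28 to −0.84). In miR6027, another family directed at immune receptors, the star was relatively lower than in ctrl in AGL6sil and relatively higher in IAA9sil. miR6027-5p had 494 reads in AGL6sil, against 1251 in IAA9sil and 1067 in ctrl. Its guide miR6027-3p had 2684 in AGL6sil, against 1487 in IAA9sil and 1861 in ctrl, and the log2 change of the arms was −1.64 (−1.82 to −1.46).

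The exceptions were the 2 precursors of miR390, which cuts the TAS3 transcript and so starts the small interfering RNAs that restrain auxin response factors. For miR390a, the star miR390a-3p had 303 reads in AGL6sil, against 206 in IAA9sil and 466 in ctrl. The guide miR390a-5p had 42 in AGL6sil, against 87 in IAA9sil and 189 in ctrl. Star reads for each guide read were 7.21 in AGL6sil, against 2.37 in IAA9sil and 2.47 in ctrl, a log2 change of 1.55 (1.01 to 2.11) in the other direction. For miR390b, whose star miR390b-3p had 6293 reads in AGL6sil, against 8279 in IAA9sil and 5067 in ctrl, they were 6.79 in AGL6sil, against 3.71 in IAA9sil and 4.49 in ctrl, a change of 0.60 (0.46 to 0.73). Here the guide had lost ground to the star.

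**Figure D2:**
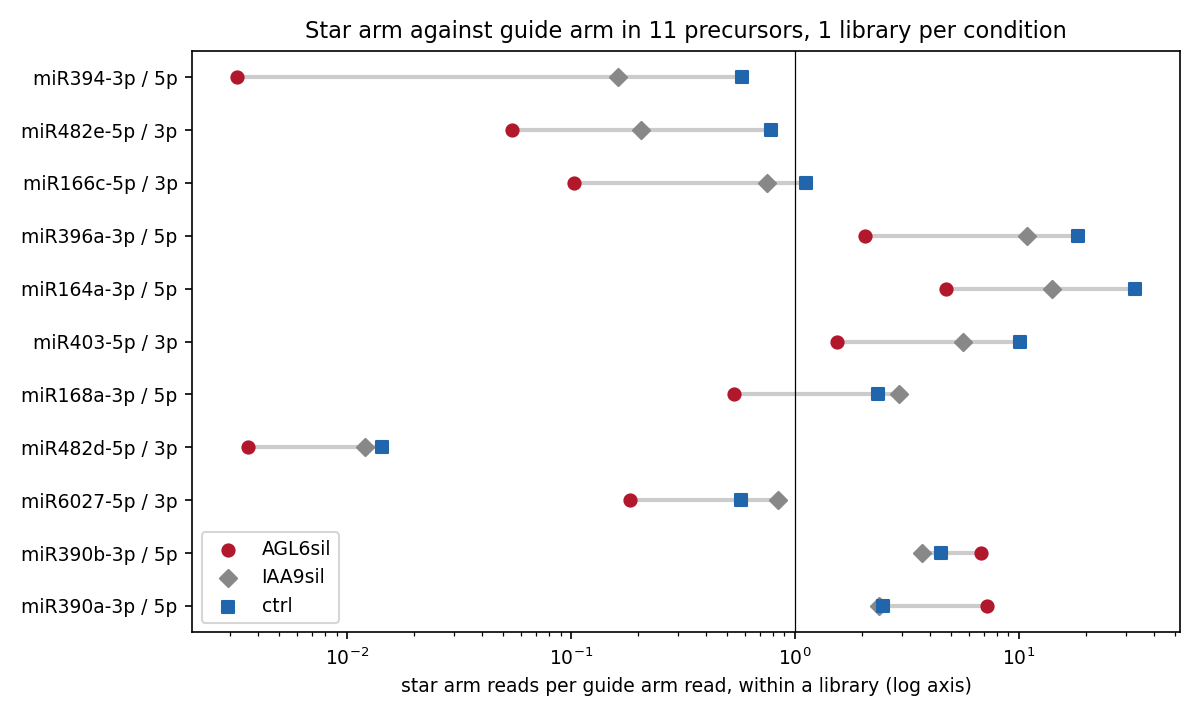
Reads of the star arm for each read of the guide arm (log axis) in AGL6sil, IAA9sil and ctrl, for the 11 precursors with at least 50 reads on each arm and a known guide, 1 library per condition. The AGL6sil point lies left of the ctrl point in 9 precursors and right of it in miR390a and miR390b, as with 0.103 against 1.13 star reads per guide read in miR166c.

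The other 5 of the 16 precursors are tomato miRNAs whose guide is not established, so the arm with fewer reads in all was set against the other. In 4 of them the minor arm, the 5p arm each time, was relatively lower in AGL6sil. miR9471b-5p had 5 reads in AGL6sil, against 30 in IAA9sil and 22 in ctrl. The other arm, miR9471b-3p, had 46068 in AGL6sil, against 24814 in IAA9sil and 22150 in ctrl. miR9476-5p had 59 reads in AGL6sil, against 446 in IAA9sil and 329 in ctrl. The other arm, miR9476-3p, had 290 in AGL6sil, against 651 in IAA9sil and 492 in ctrl. The major arms of the others were far more abundant than the minor ones. miR9470-3p had 3621 reads in AGL6sil, against 3120 in IAA9sil and 3037 in ctrl. miR9471a-3p had 7345 reads in AGL6sil, against 10006 in IAA9sil and 4208 in ctrl. The log2 changes of minor over major arm were −3.19 (−4.95 to −1.76) in miR9471b, −1.72 (−2.19 to −1.25) in miR9476, −1.55 (−2.71 to −0.49) in miR9470 and −1.25 (−2.06 to −0.46) in miR9471a. In miR9475 the arms kept their ratio. miR9475-3p, with 7998 reads in AGL6sil, against 9398 in IAA9sil and 10813 in ctrl, had 0.916 reads for each read of miR9475-5p in AGL6sil, against 0.905 in IAA9sil and 0.884 in ctrl, and the interval of the change included 0 (−0.01 to 0.11).

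Some stars are listed without a guide past the read limit. miR164b-3p, with 425 reads in AGL6sil, against 1667 in IAA9sil and 815 in ctrl, had a log2 ratio of −2.03 and was called. miR169e-3p had 12 reads in AGL6sil, against 64 in IAA9sil and 62 in ctrl, and was called at −3.46. miR168b-3p, at −1.46 with 2663 reads in AGL6sil, against 2134 in IAA9sil and 3446 in ctrl, fell short of the threshold. miR397-3p went the other way and is described with the copper miRNAs. Within its family, miR164b-3p had 2.18 reads for each read of miR164a-3p in AGL6sil, against 0.675 in IAA9sil and 0.193 in ctrl. Star arms of a single family did not move by a common factor.

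The 91 were grouped by the known targets of their family, star arms included, although these targets are those of the guides. Differences from the median of the 91 do not depend on the scale. The 4 miRNAs of copper and sulfate balance were at a median log2 of 2.33 above it, with members between −1.02 and 3.20 on the common scale, and no phosphate miRNA was past the read limit. The 13 of families directed at immune receptors were above it by 0.64 and the 34 without an assigned target class by 0.41. The 27 of families directed at transcription factors were at −0.26, the 6 of the silencing machinery at −0.52 and the 7 of families directed at F-box proteins or the TAS3 transcript at −0.66. Of the 15 arms assigned as stars, those without a listed guide included, 12 were called lower and 1 higher. Of the other 76 members, 27 were called lower, which is 35.5%, and 3 higher. The 76 include the members of miR171, whose sides were not assigned, and both arms of the precursors whose guide is not established. Among these are the minor arms miR9471b-5p, miR9476-5p, miR9470-5p and miR9471a-5p, all called lower. The share of 35.5% may therefore still hold star arms. The ranges of the classes overlapped. Split by the family number, which follows the order of registration so that most conserved families have low numbers, the 53 miRNAs numbered below 1000 were at a median of −1.46 and the 38 above at −0.65. That split was made after the values were seen.

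**Figure D3:**
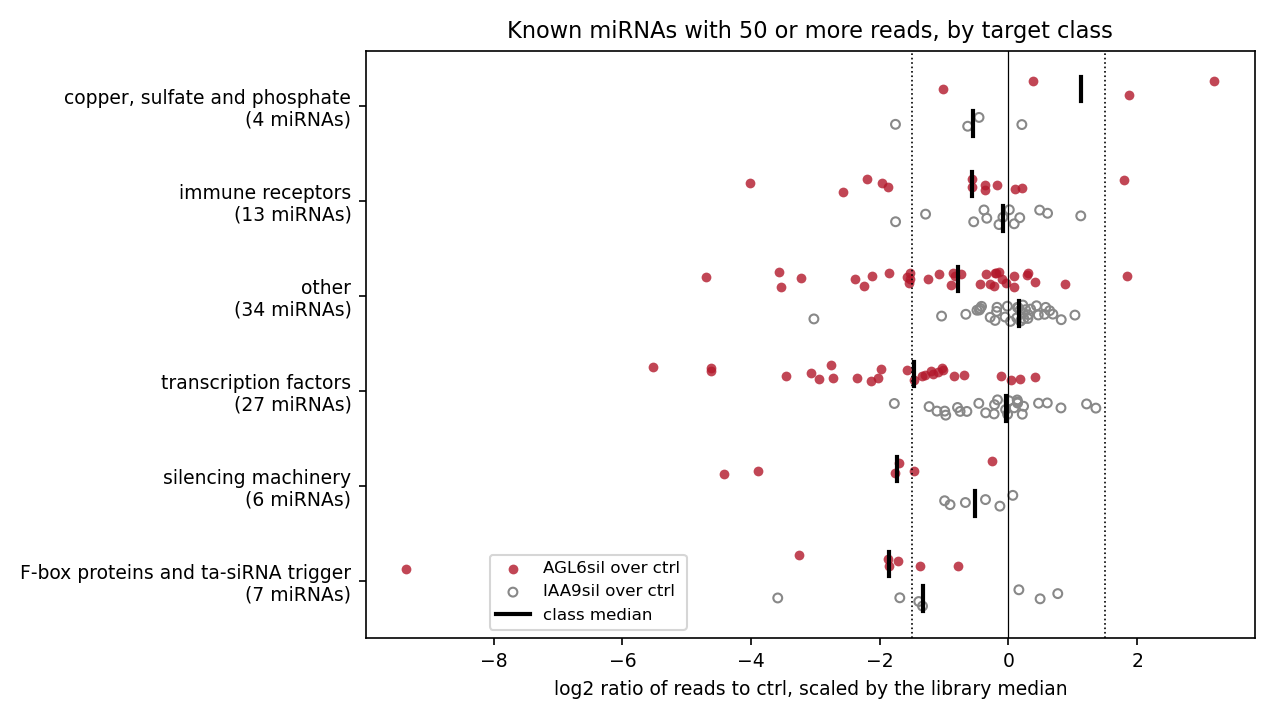
Log2 ratio to ctrl of each of the 91 known miRNAs, scaled by the library median, by target class. Filled points are AGL6sil over ctrl and open points IAA9sil over ctrl, the black bars are class medians, and the dotted lines stand at 1.5 and −1.5. In AGL6sil the class medians lie between −1.86 for F-box proteins and the ta-siRNA trigger and 1.13 for the class of copper, sulfate and phosphate, which holds no phosphate miRNA past the read limit.

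Of the 27 miRNAs of families directed at transcription factors, 13 were called lower and 0 higher, against 42.9% of the 91 called lower, and 24 had a log2 ratio below 0. The 13 include all 5 arms of the class assigned as stars. Without these, 8 of 22 were called lower, a share close to the 35.5% of all members without assigned star arms. No member of miR171 was assigned to a side, so both shares may still hold star arms. miR171, which acts on GRAS factors of the HAIRY MERISTEM group, had 5 members past the read limit, 4 of them called lower. miR171f had 2083 reads in AGL6sil, against 13246 in IAA9sil and 8244 in ctrl. The others had fewer reads. miR171b-3p had 27 in AGL6sil, against 173 in IAA9sil and 98 in ctrl. miR171a had 67 in AGL6sil, against 280 in IAA9sil and 94 in ctrl, so that it was above ctrl in IAA9sil only. miR171c had 109 in AGL6sil, against 120 in IAA9sil and 203 in ctrl. Only miR171e, with 167 reads in AGL6sil, against 142 in IAA9sil and 126 in ctrl, was not called, at −0.68. For each read of miR171e there were 12.5 reads of miR171f in AGL6sil, against 93.3 in IAA9sil and 65.4 in ctrl. miR171a and miR171b-3p share a run of 18 bases, and miR171c shares 17 bases with the rare miR171b-5p, so that the family name covers both sides of the hairpin. The longest run that miR171f shares with miR171b-5p is 6 bases, and with miR171b-3p it is 4. The GRAS target is that of the guide side, so the 4 calls need not all concern guides.

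miR167, which restrains ARF6 and ARF8, was called lower for both of its members. miR167a had 313 reads in AGL6sil, against 336 in IAA9sil and 989 in ctrl. The rarer miR167b-5p had 22 in AGL6sil, against 62 in IAA9sil and 53 in ctrl. Over the first 21 bases the guides differ by G2A and A21G, with miR167a first and positions counted from the 5′ end, and the first of these lies in the seed. Their ratio to each other did not differ detectably between AGL6sil and ctrl, by a log2 of 0.39 (−0.42 to 1.16). miR160, directed at other ARFs, was at −0.11, but its direction depended on the scale, and it was at 1.37 with the median of the known miRNAs. miR160a had 1035 reads in AGL6sil, against 363 in IAA9sil and 526 in ctrl. For each read of miR167a there were 3.31 reads of it in AGL6sil, against 1.08 in IAA9sil and 0.532 in ctrl, a log2 change of 2.64 (2.39 to 2.88).

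In miR172, which acts on AP2-type factors, miR172c had 28 reads in AGL6sil, against 58 in IAA9sil and 58 in ctrl, and was called lower at −2.14. miR172d, with 77 reads in AGL6sil, against 65 in IAA9sil and 77 in ctrl, was not called at −1.09. The 2 differed from each other by a log2 of −1.05 (−1.91 to −0.21). In miR319, directed at TCP factors, the 3 members stayed together, between −1.34 and −1.02. miR319b, the most abundant, had 3071 reads in AGL6sil, against 2907 in IAA9sil and 2920 in ctrl.

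The 3 members of this class above ctrl were miR159, miR396b and miR156d-5p. miR159, which restrains GAMYB factors, had 148794 reads in AGL6sil, against 71393 in IAA9sil and 62020 in ctrl, a log2 ratio of 0.17. miR396b had 8234 reads in AGL6sil, against 4825 in IAA9sil and 3764 in ctrl. It was at 0.04, while miR396a-5p of the same family was at −1.46. For each read of miR396a-5p there were 3.04 reads of miR396b in AGL6sil, against 1.51 in IAA9sil and 1.07 in ctrl. miR156 acts on SPL factors, which promote phase change. miR156d-5p, at 65 reads in AGL6sil, against 62 in IAA9sil and 23 in ctrl, stood at 0.41. miR156a, the other member, had 167 reads in AGL6sil, against 180 in IAA9sil and 141 in ctrl, and stood at −0.85. miR166a, with 103483 reads in AGL6sil, against 66525 in IAA9sil and 99113 in ctrl, had 1.53 reads for each read of miR166c-3p in AGL6sil, against 1.25 in IAA9sil and 1.39 in ctrl. These 2 members, both abundant, kept nearly the same proportion. miR169f, directed at NF-YA factors, had 4572 reads in AGL6sil, against 6332 in IAA9sil and 4941 in ctrl. It was at −1.20, the median of the 91.

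In the silencing machinery, 4 of 6 were called lower and 0 higher, against 42.9% of the 91 called lower. Without the 3 star arms 2 of 3 were lower, against 35.5% of the 76 members not assigned as star arms. Counts from so few members cannot set the class apart. The 4 called lower were both arms of miR403 and of miR168a, the guides at −1.70 and −1.76. miR168a-5p had 1653 reads in AGL6sil, against 1917 in IAA9sil and 2624 in ctrl. miR162, which acts on DCL1 and so on miRNA production itself, was the most abundant miRNA of each library. It held 46.2% of the members' reads in AGL6sil (interval 46.1% to 46.3%), 43.1% in IAA9sil (43.0% to 43.2%) and 35.9% in ctrl (35.8% to 36.0%), although its log2 ratio on the common scale was −0.25.

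Among the 7 of families directed at F-box proteins or TAS3, 5 were called lower, against 42.9% of the 91. All 7 lay below 0, as did 82.4% of the 91. Without the 3 star arms 3 of 4 were called lower, against 35.5% of the 76 members not assigned as star arms. With so few members these counts cannot set the class apart. The 5 called lower include both arms of miR394 and of miR390a. miR390b was nearer to ctrl, with miR390b-5p at 927 reads in AGL6sil, against 2229 in IAA9sil and 1128 in ctrl, and a log2 ratio of −1.37. miR393, which restrains the auxin receptors TIR1 and AFB, had 18 reads in AGL6sil, against 3 in IAA9sil and 31 in ctrl. Its ratio of −1.87 has an interval of −2.80 to −0.99, which includes the threshold.

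The largest increases were in the copper group. Plants raise miR397, miR398 and miR408 when copper is short, and these miRNAs lower laccases, copper/zinc superoxide dismutase and plantacyanin, which spares copper. miR398a had 19338 reads in AGL6sil, against 1326 in IAA9sil and 988 in ctrl. Its share of the members' reads was 1.39% in AGL6sil, against 0.130% in IAA9sil and 0.0981% in ctrl, and its log2 ratio to ctrl was 3.20 (3.11 to 3.29). miR397-3p, the star side of miR397, had 102 reads in AGL6sil, against 11 in IAA9sil and 13 in ctrl, and its log2 ratio was 1.88 (1.04 to 2.84). miR408 did not follow. It had 205 reads in AGL6sil, against 146 in IAA9sil and 195 in ctrl, and a log2 ratio of −1.02, near the median of the 91. For each read of miR408 there were 94.3 reads of miR398a in AGL6sil, against 9.08 in IAA9sil and 5.07 in ctrl, a log2 change of 4.22 (3.91 to 4.52). miR395a, which acts on ATP sulfurylase and a sulfate transporter, had 7258 reads in AGL6sil, against 904 in IAA9sil and 2628 in ctrl. The log2 ratio of miR395a to ctrl was 0.38 in AGL6sil and −1.76 in IAA9sil.

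Of the 13 miRNAs of families directed at immune receptors, 5 were called lower and 1 higher, against 42.9% and 4.40% of the 91. The 5 include all 3 star arms. Of the other 10 members 2 were called lower, miR5300 and miR6024, beside 27 of the 76 members not assigned as star arms. The guide-side members of miR482 differed among themselves. miR482a, the one called higher, had 16035 reads in AGL6sil, against 3849 in IAA9sil and 2174 in ctrl. miR482b had 17754 in AGL6sil, against 9600 in IAA9sil and 10757 in ctrl. miR482c had 2179 in AGL6sil, against 1635 in IAA9sil and 1323 in ctrl. The most abundant, miR482e-3p, had 33921 in AGL6sil, against 23545 in IAA9sil and 17945 in ctrl. Thus miR482a took 22.2% of the reads of these members and miR482d-3p, 5 in all, in AGL6sil (interval 21.9% to 22.5%), 9.50% in IAA9sil (9.21% to 9.79%) and 6.41% in ctrl (6.15% to 6.67%). Against miR482b, miR482a was higher by a log2 of 2.16 (2.09 to 2.23) in AGL6sil than in ctrl. The other guides of the family stayed close to each other, with log2 ratios between −0.57 and −0.17.

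miR5300, which is related to miR482 and acts on the same kind of receptor, was called lower, with 228 reads in AGL6sil, against 678 in IAA9sil and 417 in ctrl. Its reads for each read of miR482b were 0.0128 in AGL6sil, against 0.0706 in IAA9sil and 0.0388 in ctrl. miR6024 was called lower as well, at 60 reads in AGL6sil, against 49 in IAA9sil and 103 in ctrl, and its log2 ratio was −1.87 (−2.35 to −1.40). miR6022 and miR6026 had log2 ratios of 0.10 and 0.22 and were not called. miR6026 had 386 reads in AGL6sil, against 395 in IAA9sil and 156 in ctrl, and in IAA9sil it was at 1.12.

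The 34 miRNAs without an assigned target class comprise 12 called lower, which is 35.3%, 1 called higher and 21 not called. Of all 91 members, 42.9% were called lower and 4.40% higher. No arm of this class was assigned as a star, and 35.5% of the 76 members not assigned as star arms were called lower. The class was thus level with those members. miR9472-5p, the lowest of them, had 106 reads in AGL6sil, against 1679 in IAA9sil and 1301 in ctrl. miR530 had 18 reads in AGL6sil, against 14 in IAA9sil and 98 in ctrl, low in both silenced libraries. The 2 arms of miR9475, with 8728 reads in AGL6sil, against 10381 in IAA9sil and 12230 in ctrl for miR9475-5p, were both just past the threshold at −1.58 and −1.53. miR1919a was called at −2.24 with 176 reads in AGL6sil, against 287 in IAA9sil and 391 in ctrl. miR1919c-5p was not called, with 2861 in AGL6sil, against 2263 in IAA9sil and 2249 in ctrl. The members of the class that were not called ranged between −1.25 and 0.88. Also called lower were miR10537, with 88 reads in AGL6sil, against 184 in IAA9sil and 180 in ctrl, and miR5304, with 41 in AGL6sil, against 88 in IAA9sil and 56 in ctrl. So was miR9470-5p, with 11 reads in AGL6sil, against 31 in IAA9sil and 27 in ctrl.

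miR9471a-5p and miR9471b-5p share their seed, the only members with a known sequence to do so, and differ by C1G, with miR9471a-5p first. miR9471a-5p had 25 reads in AGL6sil, against 59 in IAA9sil and 34 in ctrl. Its interval, −2.34 to −0.75, and that of miR9471b-5p, −4.98 to −1.79, overlap. miR9474-5p, called higher, rests on 61 reads in AGL6sil, against 15 in IAA9sil and 8 in ctrl. The 5 members of miR7981 had log2 ratios between −0.19 and 0.88, well above the median of the 91. The most abundant, miR7981e, had 55146 reads in AGL6sil, against 41289 in IAA9sil and 28663 in ctrl, and miR7981f had 0.491 reads for each of them in AGL6sil, against 0.399 in IAA9sil and 0.359 in ctrl. miR10532 was also among the 5 miRNAs with the most reads, at 66434 in AGL6sil, against 50179 in IAA9sil and 35913 in ctrl.

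**Figure D4:**
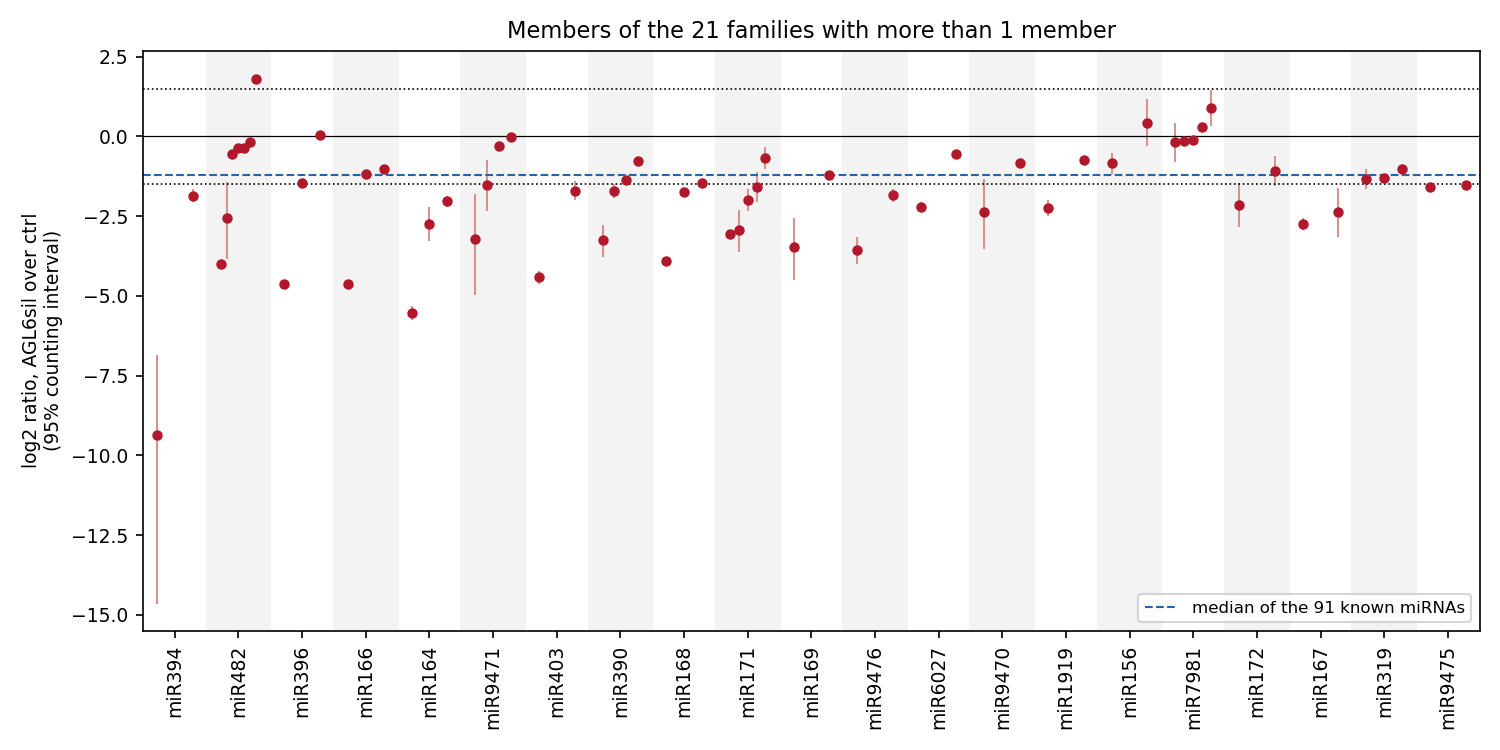
Log2 ratio of AGL6sil over ctrl, scaled by the library median, for each member of the 21 families with more than 1 member, ordered by the spread within the family. Lines are 95% counting intervals, dotted lines stand at 1.5 and −1.5, and the dashed line is the median of the 91 known miRNAs at −1.20. Members span 7.50 in miR394 and 5.80 in miR482, and 0.05 in miR9475.

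Members of a family can have nearly the same mature sequence, and how reads matching several of them were divided is not given in the sources used here, so ratios between members carry that uncertainty. Sequences were at hand for 44 of the 91, among them all 43 that were called, so called and other miRNAs could not be compared by sequence. Of the 39 called lower, 17 begin with U, 10 with A, 8 with C and 4 with G, and all 4 called higher begin with U. Most guides of plants begin with U, the base that AGO1 prefers. Among the star arms of the 11 precursors, 1 of the 10 with a known sequence begins with U. By length, 33 of the 39 have 21 bases, 4 have 22 and 2 have 20, and of the 4 called higher 2 have 21 and 2 have 22.

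The read limit of 50 fell between miR172a, with 2 reads in AGL6sil, against 28 in IAA9sil and 18 in ctrl, and miR393, with 52 reads in all. Just inside it were also miR482d-5p and miR9471b-5p, with 57 reads each in all.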

How the data were processed

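Small RNA of tomato ovaries was measured in 3 libraries, 1 per condition. The authors removed low-quality and adapter reads, mapped reads of 18 to 30 nt to the genome with Bowtie, matched them to miRBase, and deposited counts of reads per mature miRNA without normalization. The genome build, tool versions and the handling of reads that match several miRNAs are not given in the sources used here. The miRNA reads were 1460919 in AGL6sil, against 1053000 in IAA9sil and 1038064 in ctrl, and that number limits the precision of each ratio.

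Counts were scaled by the library's median, taken over the 634 miRNAs, and log2 ratios were taken without a pseudocount. A miRNA was called at 50 or more reads over the 3 libraries and a log2 ratio of 1.5 or more in size. No test across miRNAs was made, since there are no replicates. Ratios of 2 miRNAs in a library were compared between libraries as odds ratios with exact conditional 95% intervals, and other intervals are Clopper-Pearson. Groups came from the sample titles and treatments. Every called miRNA is named, besides both arms of precursors with 50 reads on each, members of families that differ, and the 5 with the most reads. The members, target classes and tests were chosen with earlier results of these data known, and the assignment of guide and star arms and of the single members compared was made after their values were seen. Alternatives were 7 other scales (one each from DESeq2 1.42.0 and edgeR 4.0.16 in R 4.3.3), other read limits, a pseudocount of 1, a 1.5-fold threshold, calls by the counting interval, and IAA9sil in place of ctrl. The functions were tested on simulated counts. Python 3.11.15, numpy 2.4.6, scipy 1.17.1, pandas 2.3.3 and matplotlib 3.10.9 were used. Sequences are those of the supplementary tables of the study, which list the miRNAs that it called.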

Additional observations from a re-analysis of the deposited data

How the results depend on the processing

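The number of known miRNAs called lower in AGL6sil, 39 with the median of all listed miRNAs, was 24 with the total of miRNA reads as the scale, 20 with that total without sly-miR162, 17 without scaling, 15 with the clean reads and 14 with the median of the known miRNAs. It was 34 with both the median of ratios and TMM, and 59 at a 1.5-fold threshold. The number called higher, 4, was 11 with the clean reads, 16 with the median of the known miRNAs, and 2 where the counting interval had to lie past the threshold. The median log2 ratio of the 91, −1.20, was −1.04 with TMM, −0.61 with the total, −0.38 with the total without sly-miR162, −0.11 without scaling, 0.11 with the clean reads and 0.28 with the median of the known miRNAs. Apart from the 1.5-fold threshold and the counting interval, these counts differ because the scale shifts every ratio alike. The scales shift the ratios by at most 1.48, less than the threshold of 1.5, so no called miRNA could change direction under any of them. With a pseudocount of 1 no called miRNA changed direction either.

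Relative to the median of the known miRNAs, the copper, sulfate and phosphate class was at 3.08 and the transcription factor class at −0.58 without the read filter, and the class without assigned targets was at 0.78 with 50 reads required in the larger library. These filters change which miRNAs are counted. Without star arms, in the classes and in the median of all, an alternative chosen after seeing the data, the class of F-box proteins and the TAS3 trigger was at −0.85, the silencing machinery at −0.68, the copper and sulfate class at 1.39 and the class without assigned targets at 0.23. The median change of minor over major arm, −1.55, was −0.90 over the 24 precursors with at least 10 reads on each arm and a ratio, −1.42 with a pseudocount of 1 and −1.66 with IAA9sil in place of ctrl. That of star over guide arm, −2.72, was −1.91 with IAA9sil in place of ctrl, where the star was relatively lower in 9 of 11 precursors. No paired analysis was possible because each condition has 1 library. Leaving out a replicate was not possible for the same reason. Depth limits most the arms with few reads, such as sly-miR394-3p with 1 read in AGL6sil.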

Other observations

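The 34 known miRNAs under 50 reads were left out of the counts above. The counting interval of their log2 ratio between AGL6sil and ctrl, on the median scale, lay below 0 for 8 of them, above 0 for 0 and included 0 for 26. The interval was below 0 under each of the 8 scales for 2 of them. Among the 8, miR172a had 2 reads in AGL6sil and 18 in ctrl, a log2 ratio of −4.26 (interval −7.41 to −2.20), which puts it beside miR172c of the same family. Its sequence differs from that of miR172c by G21U, with miR172c first. miR167b-3p, the star of miR167b, had 0 reads in AGL6sil, against 16 in IAA9sil and 23 in ctrl. The upper bound of the interval of its log2 ratio was −3.61 on the median scale, and it is nearer to 0 by up to 1.48 on the others.

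Above ctrl, with intervals that include 0, were miR397-5p, the laccase-directed guide of miR397, with 10 reads in AGL6sil, against 6 in IAA9sil and 1 in ctrl, and both arms of miR9469, with 23 and 22 reads in AGL6sil, against 3 and 3 in IAA9sil and 6 and 6 in ctrl. miR169c had 21 reads in AGL6sil, against 4 in IAA9sil and 3 in ctrl.

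Some members differed more from ctrl in IAA9sil than in AGL6sil on the median scale, both set against the same ctrl library. miR6026 was higher in IAA9sil than in ctrl by a log2 ratio of 1.12 and miR9471a-3p by 1.03, and in AGL6sil these were 0.22 and −0.29.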
